A study of Rattus norvegicus with 12 samples.

Results

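Pro-opiomelanocortin (Pomc) lineage and prohormone processing genes were followed in the pituitary and hypothalamus of male Wistar rat fetuses. The set was defined by symbol and held 10 genes: Pomc, Tbx19, Crhr1, Neurod1, Pcsk1, Pcsk2, Scg2, Chga, Chgb and Cpe. In the platform annotation used here, 7 of the 10 symbols had a probe, 1 each, and Crhr1, Pcsk1 and Cpe had none, so that those 3 were not analysed here. All 7 probes passed the filter on dim probes, among 13018 tested of the 22523 on the array. In RefSeq on GRCr8, Pomc lies on chromosome 6 (32659137 to 32665175), Tbx19 on chromosome 13 (79983935 to 80016219), Neurod1 on chromosome 3 (84766483 to 84770454), Pcsk2 on chromosome 3 (151333938 to 151636628), Scg2 on chromosome 9 (88251531 to 88257208), Chga on chromosome 6 (127460895 to 127472238) and Chgb on chromosome 3 (140496712 to 140510057). The 12 samples formed 4 groups of 3: TCDD pituitary, control pituitary, TCDD hypothalamus and control hypothalamus. TCDD (2,3,7,8-tetrachlorodibenzo-p-dioxin), the prototype dioxin and a ligand of the aryl hydrocarbon receptor (AhR), had been given to the dams by mouth in corn oil on gestational day 15, and tissue was taken on gestational day 20. The series text gives the dose as 1 µg/kg and the sample labels as 1 mg/kg. The labels do not say what the control dams received, or whether the arrays of a group came from separate litters or pooled fetuses. The tests therefore rest on array-to-array spread, which may be technical. The labels name no lobe of the pituitary, and so corticotrophs of the anterior lobe and melanotrophs of the intermediate lobe are measured together.

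Pomc encodes a precursor that is cut at pairs of basic residues into different hormones by cell type. Corticotrophs use the convertase PC1/3, encoded by Pcsk1, to release adrenocorticotropic hormone (ACTH), while melanotrophs and the Pomc neurons of the arcuate nucleus add PC2, encoded by Pcsk2, which cuts further towards α-melanocyte-stimulating hormone (α-MSH) and β-endorphin. Carboxypeptidase E, encoded by Cpe, then trims the basic residues that are left behind. The granins Scg2, Chga and Chgb are acidic proteins packed with peptide hormones in dense-core granules of endocrine cells and neurons.

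Upstream sequences are shown for the gene that passed the TCDD comparison, Pcsk2, and for Pomc and its regulators Tbx19 and Neurod1, which did not pass it. Each is the 250 bases before the start site in the RefSeq promoter table on GRCr8, 5′ to 3′ on the strand of the gene. For Pomc, Tbx19 and Scg2 that start lies inside the gene span given above, and distances are counted from it. The table held 8 of the 10 genes, and Pcsk1 and Chga were not in it. Capitals mark the core of the dioxin response element bound by AhR (GCGTG, both strands searched) and the TATA box (TATAAA, sense strand).
Pcsk2, chr3:151333688-151333937, plus strand: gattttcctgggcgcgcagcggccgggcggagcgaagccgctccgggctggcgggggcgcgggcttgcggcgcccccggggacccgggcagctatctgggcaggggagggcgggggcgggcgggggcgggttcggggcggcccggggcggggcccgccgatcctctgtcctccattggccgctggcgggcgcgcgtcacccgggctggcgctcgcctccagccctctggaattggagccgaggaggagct
Pomc, chr6:32659103-32659352, plus strand: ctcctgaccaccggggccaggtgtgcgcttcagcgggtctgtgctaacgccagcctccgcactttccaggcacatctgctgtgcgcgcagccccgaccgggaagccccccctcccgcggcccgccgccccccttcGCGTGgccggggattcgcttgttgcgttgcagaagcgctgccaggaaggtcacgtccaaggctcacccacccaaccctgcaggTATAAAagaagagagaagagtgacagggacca
Tbx19, chr13:80006344-80006593, minus strand: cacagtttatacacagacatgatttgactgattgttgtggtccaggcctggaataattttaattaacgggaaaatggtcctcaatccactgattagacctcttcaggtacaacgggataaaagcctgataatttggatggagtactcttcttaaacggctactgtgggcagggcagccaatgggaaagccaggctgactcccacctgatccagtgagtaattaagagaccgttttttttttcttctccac
Neurod1, chr3:84770455-84770704, minus strand: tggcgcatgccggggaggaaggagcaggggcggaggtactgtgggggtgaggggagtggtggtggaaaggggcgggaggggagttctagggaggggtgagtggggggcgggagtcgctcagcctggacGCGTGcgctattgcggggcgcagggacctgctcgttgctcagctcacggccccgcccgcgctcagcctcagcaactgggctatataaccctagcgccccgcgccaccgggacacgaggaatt
The Pcsk2 window held 0 copies of the AhR core and was 79.6% G or C. The Pomc window held 1, starting 115 bases before the start site, besides a TATA box at 32 bases. The Tbx19 window held 0 copies of either motif, and the Neurod1 window held 1 AhR core, at 122 bases. Over all 33469 upstream windows of that length, 25.9% held the core and 8.06% the TATA box. Of the granins only Scg2 and Chgb could be searched for the full cAMP response element (TGACGTCA, both strands), which 1.59% of all windows held. The Scg2 window held 1, 123 bases before its start, and the Chgb window 0. A match of letters is a description and not a binding site.

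Sums of markers of the cells each dissection should hold lay apart between the tissues. The summed normalized signal of 4 other pituitary hormone genes (Prl, Tshb, Lhb and Fshb) was 29220 to 38260 in TCDD pituitaries and 40800 to 46080 in control pituitaries, against 184.4 to 277.8 in TCDD hypothalami and 165.5 to 220.3 in control hypothalami. Tshb made up most of the pituitary sum, at a mean log2 level of 15.11 in controls, against 11.86 for Prl and 11.61 for Lhb. Gh1 had no named probe. Cga was above background on 2 control and 0 TCDD pituitary arrays and was not tested. The sum of 12 neuron markers was 97700 to 99070 in TCDD hypothalami and 95370 to 103900 in control hypothalami. In pituitaries it was 16010, 14850 and 54770 on TCDD replicates 1, 2 and 5, against 16580 to 22610 in controls, so that TCDD replicate 5 stood apart. The sum of 8 glia and pituicyte markers was also highest on that array, at 10090, against 3996 and 2754 on TCDD replicates 1 and 2. In control pituitaries it was 3201 to 6851. Of the AhR targets, Cyp1a1 (at least 57.3-fold), Ahrr (at least 10.9-fold), Nqo1 (1.69 on the log2 scale) and Cyp1b1 (1.87) rose in the pituitary (limma adjusted p = 1.11e-11, 1.87e-11, 9e-06 and 0.0193). Cyp1a1 and Ahrr were above background on the 3 TCDD pituitary arrays alone, and so were tested only because of that group. In the hypothalamus none of them passed, with Cyp1b1 at 2.04 (adjusted p = 0.111) and Nqo1 at 0.35 (adjusted p = 0.317).

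Between the tissues, 6 of the 7 genes were higher in control pituitary than in control hypothalamus and 1, Pcsk2, was lower. Tbx19 met the filter on dim probes only through the pituitary arrays. All 7 passed the limma test (adjusted p below 0.05 over all tested probes). In normalized level the 3 arrays of one tissue lay apart from the 3 of the other on each of them, but the share of all tested probes that do so was not counted. The background of this comparison was high, since 69.5% of all tested probes passed, 33.7% higher and 35.9% lower in the pituitary. The median log2 difference of the 7 genes was 0.82, against −0.05 over all tested probes. In bulk tissue, fewer cells of a type and less RNA per cell cannot be told apart.

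Pomc itself had the widest difference of the 7. Its normalized log2 level was 14.80, 14.83 and 14.68 on control pituitary replicates 1, 2 and 3, against 9.67, 9.41 and 9.32 on control hypothalamus replicates 1, 3 and 5. The pituitary arrays lay together far above the hypothalamic ones, where Pomc was nevertheless detected on every array. The difference was 5.30 ± 0.13 on the log2 scale (SE, 39.4-fold, adjusted p = 2.12e-11).

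Tbx19, which encodes Tpit, the T-box factor that specifies corticotrophs and melanotrophs and activates Pomc, was 8.29, 8.38 and 8.04 in control pituitaries, against 5.59, 5.40 and 5.55 in control hypothalami. It was not above background on any control hypothalamus array and on 1 of 3 with TCDD, where Pomc was nonetheless detected. The pituitary level was at least 6.33-fold higher (adjusted p = 1.85e-08). The size moved with the processing, and the cause was not tested: the log2 difference was 2.73 with the normalization used here, 1.80 without background correction and 0.89 with the authors' values, and passed in each case.

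Neurod1, a basic helix-loop-helix factor that acts with Tpit and Pitx1 on the Pomc promoter in corticotrophs and is also found in developing neurons, was 10.16, 9.61 and 9.78 in control pituitaries, against 7.80, 7.45 and 7.43 in control hypothalami. It was detected on all 12 arrays, and the tissues did not overlap. The difference was 2.29 ± 0.21 (SE, adjusted p = 6.82e-07), and 1.55 with the authors' values.

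The 3 granins differed by less and by like amounts. Scg2, the precursor of secretoneurin, was 10.83, 10.62 and 10.36 in control pituitaries, against 9.91, 9.93 and 9.53 in control hypothalami, a difference of 0.82 ± 0.16 (adjusted p = 5.2e-04). Chga, chromogranin A, was 8.92, 8.99 and 8.79 in control pituitaries, against 7.91, 8.14 and 8.30 in control hypothalami (0.78 ± 0.12, adjusted p = 8.98e-05). Chgb, chromogranin B, was 13.23, 13.32 and 13.08 in control pituitaries, against 12.23, 12.49 and 12.57 in control hypothalami (0.78 ± 0.13, adjusted p = 2.13e-04). For each granin the lowest pituitary array was above the highest hypothalamic one, and the granins are made by neurons as well as by endocrine cells.

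Pcsk2 ran the other way. It was 6.40, 6.69 and 6.67 in control pituitaries, against 7.26, 6.93 and 7.18 in control hypothalami, and every pituitary array was below every hypothalamic one. In raw intensity the tissues overlapped, at 151.6 to 191.2 in control pituitaries and 168.3 to 219.5 in control hypothalami. The difference of −0.54 ± 0.14 (SE, adjusted p = 0.00391) was 0.687-fold. It was −0.07 with the authors' values, on which the arrays of a tissue share 1 distribution, and no longer passed (adjusted p = 0.21).

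**Figure D1:**
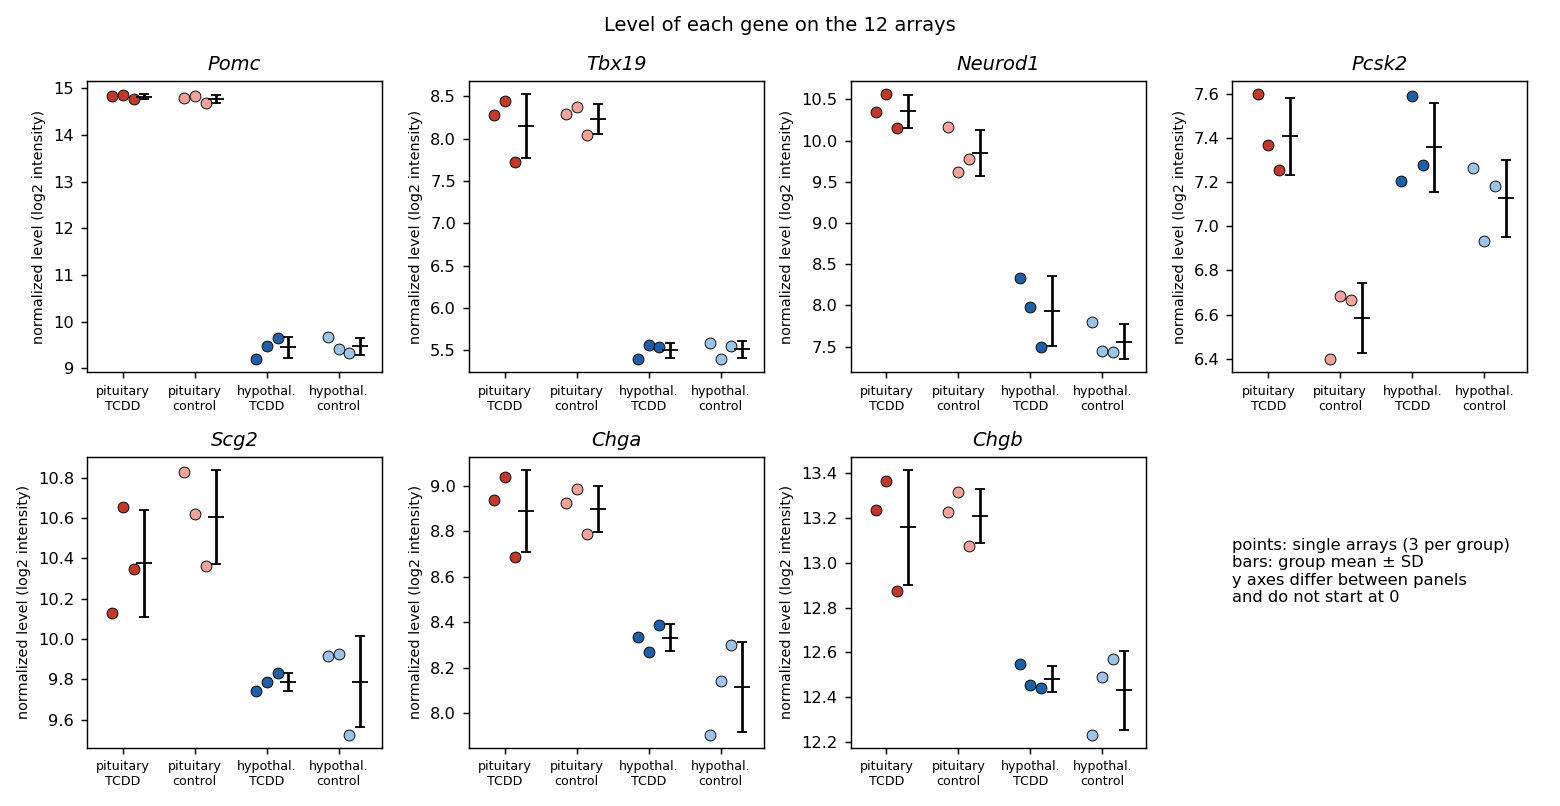
Normalized log2 level of the 7 measured genes on the 12 arrays, with 3 arrays per group as points and the group mean ± SD as bars. The y axes differ between panels and do not start at 0. Pomc is near 14.8 in both pituitary groups and near 9.5 in both hypothalamic groups, and only for Pcsk2 do the pituitary TCDD and control points separate without overlap. The share of all tested probes that separate in this way was not counted.

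TCDD left most of the set within the spread of the arrays in the pituitary. Of the 7 genes, 1 rose, Pcsk2, and 6 did not pass. Over all tested probes 0.668% passed in either direction, 0.384% higher and 0.284% lower, so that 1 of 7 rests on a single gene. The median log2 fold of the 7 genes was −0.01 and that of all tested probes −0.01.

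Pcsk2 was 7.60, 7.37 and 7.25 on TCDD pituitary replicates 1, 2 and 5, against 6.40, 6.69 and 6.67 on control replicates 1, 2 and 3. In raw intensity, before any correction, it was 264.6, 266.3 and 240.3 with TCDD, against 151.6, 168.7 and 191.2 in controls. On both scales the lowest TCDD array was above the highest control array. The gene rose by 0.82 ± 0.14 on the log2 scale (SE, 95% interval 0.52 to 1.13, 1.77-fold, limma adjusted p = 0.0187), to a mean of 7.41 ± 0.18 with TCDD, against 6.58 ± 0.16 in controls (SD, n = 3 each).

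Dropping 1 pituitary array ended the Pcsk2 call in 4 of 6 cases: control replicate 1 (log2 fold 0.73, limma adjusted p = 0.098) or control replicate 2 (0.87 and 0.0545), and replicate 1 (0.73 and 0.0978) or replicate 2 (0.84 and 0.0609) of the TCDD group. It also ended with the pituitary fitted alone (0.83, adjusted p = 0.0924) and with a replicate block (0.86, adjusted p = 0.123). Over all alternatives the adjusted p ran from 0.00512 to 0.123. The fold was 0.55 without background correction and 0.28 with the authors' values, and it passed in both.

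The marker sums on the same arrays are given for comparison. Neuron markers were high on TCDD replicate 5, where Pcsk2 was the lowest of the 3 TCDD arrays, and without that array Pcsk2 rose by 0.90 (adjusted p = 0.0181). The sum of 9 skeletal muscle markers was 807.6, 703.2 and 1146 with TCDD, against 1232, 1429 and 1848 in controls, and 4 of the 9 fell (Myl11, Tnnc2, Ckm and Tnnt3, by 1.37, 1.00, 1.40 and 0.52 on the log2 scale, with adjusted p = 0.00435, 0.0284, 0.0296 and 0.0468). Of 12 neuron, 8 glia and pituicyte and 6 blood markers tested, 0 of each passed in the pituitary. The groups of the muscle sum do not overlap. The part of the neuron sum and that of the muscle sum in the Pcsk2 result were not tested. Of the 4 other hormone genes 2 fell, Fshb (−3.32) and Lhb (−1.81) (adjusted p = 0.00034 and 0.00135). Myl11, Ckm and Fshb were above background on 3 control and 2 TCDD pituitary arrays and on 0 hypothalamic arrays. Tnni2, in the muscle sum, was above it on 3, 1 and 0. These genes met the filter on dim probes only through the control pituitaries, and their falls are partly set against background.

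**Figure D2:**
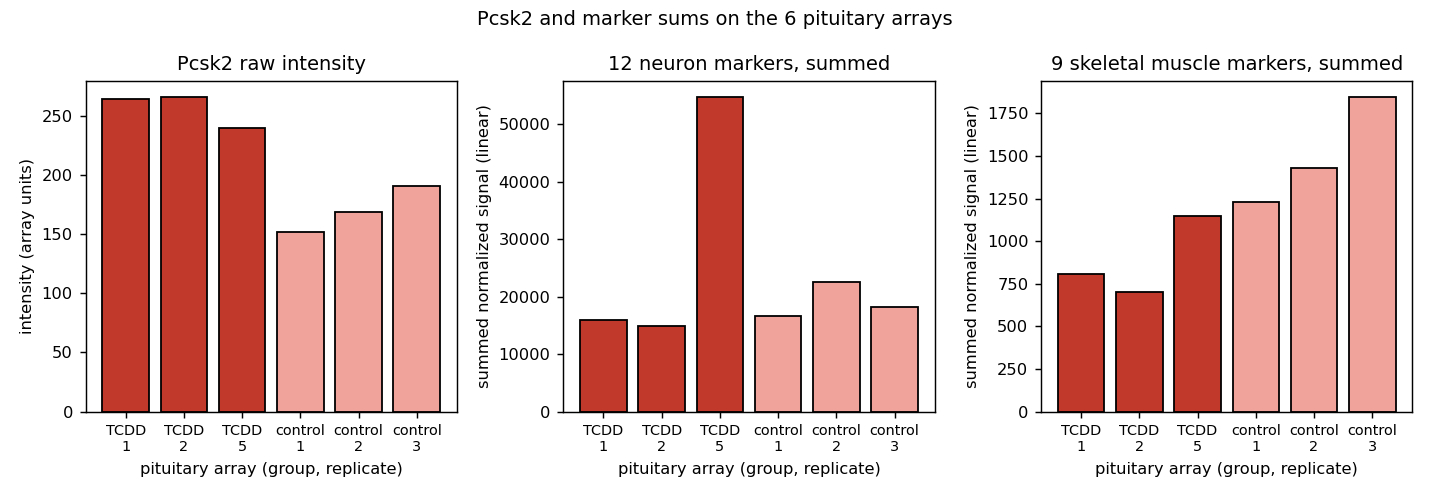
Raw Pcsk2 intensity (left, array units), summed normalized signal of 12 neuron markers (middle) and of 9 skeletal muscle markers (right) on the 6 pituitary arrays, TCDD in dark and control in light bars. Pcsk2 is 240.3 to 266.3 with TCDD and 151.6 to 191.2 in controls, while the neuron sum is high on TCDD replicate 5 (54770) and the muscle sum is lower on all 3 TCDD arrays.

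Pomc did not pass with TCDD in the pituitary. It was 14.84, 14.87 and 14.76 on TCDD arrays, against 14.80, 14.83 and 14.68 on control arrays, and the groups overlapped. Its log2 fold was 0.05 ± 0.13 (SE, adjusted p = 0.917), with a 95% interval of −0.22 to 0.33, which covers array spread only. Raw Pomc intensity was 29371 to 31188.9 with TCDD and 30016.4 to 31962.9 in controls. Whether so bright a probe still follows its RNA in proportion was not tested, so the interval does not bound a change in Pomc RNA.

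Tbx19 was 8.27, 8.44 and 7.72 with TCDD, against 8.29, 8.38 and 8.04 in controls (−0.09 ± 0.16, adjusted p = 0.895). TCDD replicate 5 was the lowest of the 6 arrays and TCDD replicate 2 the highest, so that the controls lay inside the range of the TCDD group. The 95% interval ran from −0.44 to 0.26.

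Neurod1 came nearest to Pcsk2 in size. It was 10.35, 10.56 and 10.16 with TCDD, against 10.16, 9.61 and 9.78 in controls, and the groups met at TCDD replicate 5 and control replicate 1. The log2 fold was 0.51 ± 0.21 (95% interval 0.06 to 0.96), and it did not pass over all tested probes (adjusted p = 0.372, 0.146 to 0.697 over the alternatives).

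The granins did not pass in the pituitary. Scg2 was 10.13, 10.65 and 10.35 with TCDD, against 10.83, 10.62 and 10.36 in controls (−0.23 ± 0.16, adjusted p = 0.639). Chga was 8.94, 9.04 and 8.69 with TCDD, against 8.92, 8.99 and 8.79 in controls (−0.01 ± 0.12, adjusted p = 0.987). Chgb was 13.23, 13.37 and 12.87 with TCDD, against 13.23, 13.32 and 13.08 in controls (−0.05 ± 0.13, adjusted p = 0.93). In each of the 3 the groups overlapped.

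Tbx19, Chga and Chgb shared their high and low arrays. Each was highest on TCDD replicate 2, next on control replicate 2, and lowest on TCDD replicate 5, with control replicate 3 second lowest. Pomc had its highest value on TCDD replicate 2 too, and its lowest on control replicate 3. The array that was lowest for Tbx19, Chga and Chgb is the one with the high neuron sum, and its part in the low values was not tested.

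In the hypothalamus 0 of the 7 genes passed by limma at adjusted p below 0.05 and 0 at an unadjusted p below 0.05. Over all tested probes 0.023% passed there after adjustment, 0.00768% higher and 0.0154% lower. Without adjustment, 1422 of the 13018 had a p below 0.05. Pomc was 9.20, 9.49 and 9.65 on TCDD replicates 1, 3 and 4, against 9.67, 9.41 and 9.32 on control replicates 1, 3 and 5 (−0.02 ± 0.13, 95% interval −0.30 to 0.25, adjusted p = 0.971). On the normalized scale the Pomc groups overlapped, with TCDD replicate 1 the lowest and control replicate 1 the highest of these arrays. In raw intensity they did not, at 602 to 648 with TCDD and 672.3 to 863 in controls. The raw median over all probes was 107.3, 93.8 and 92.5 on the TCDD arrays, against 112.1, 103 and 120.8 on the controls. With median scaling the log2 fold of Pomc was −0.176 (limma adjusted p = 0.547).

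Pcsk2 was 7.21, 7.59 and 7.28 in TCDD hypothalami, against 7.26, 6.93 and 7.18 in control hypothalami. TCDD replicate 1 lay below control replicate 1, and the log2 fold was 0.23 ± 0.14 (95% interval −0.07 to 0.54, adjusted p = 0.587). Neurod1 was 8.33, 7.99 and 7.49 with TCDD, against 7.80, 7.45 and 7.43 in controls (0.37 ± 0.21, adjusted p = 0.555).

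The granins of the hypothalamus overlapped between treatments. Chga was 8.33, 8.27 and 8.39 with TCDD, against 7.91, 8.14 and 8.30 in controls (0.22 ± 0.12, adjusted p = 0.562). Scg2 was 9.74 to 9.83 with TCDD, against 9.53 to 9.93 in controls (0.00 ± 0.16, adjusted p = 0.998). Chgb was 12.44 to 12.55 with TCDD, against 12.23 to 12.57 in controls (0.05 ± 0.14, adjusted p = 0.929). Tbx19 lay near background in both groups, at 5.40 to 5.57 with TCDD, against 5.40 to 5.59 in controls.

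The difference of the TCDD effect between the tissues, pituitary minus hypothalamus, passed for 0 of the 7 genes, against 0.2% of all tested probes, 0.123% positive and 0.0768% negative. At an unadjusted p below 0.05 there was 1 of the 7, against 1538 of all 13018 tested probes. It was Pcsk2, at 0.59 ± 0.20 (95% interval 0.16 to 1.02, adjusted p = 0.287). The pass of Pcsk2 in the pituitary alone therefore does not show a difference from the hypothalamus. The other 6 differences ran from −0.23, for Scg2 and Chga, to 0.13, for Neurod1.

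**Figure D3:**
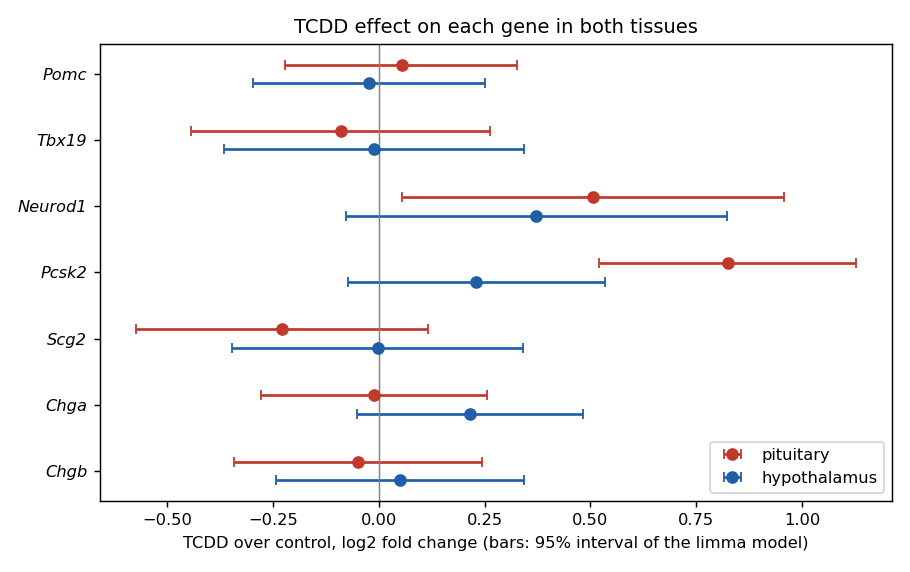
Log2 fold change of TCDD over control for the 7 genes in the pituitary and the hypothalamus, with 95% intervals of the limma model. The pituitary interval of Pcsk2 runs from 0.52 to 1.13. That of Neurod1, 0.06 to 0.96, also lies above 0 but did not pass after adjustment, and all hypothalamic intervals include 0.

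Genes around the set were taken from lists chosen with results of these data known. Among other convertases and peptide processing enzymes 0 of 14 tested passed for TCDD in the pituitary and 0 of 14 in the hypothalamus, with median log2 folds of 0.06 and 0.02. The 2 of smallest p in the pituitary were Pcsk6, a convertase of the secretory pathway, at 8.39 ± 0.17 with TCDD and 8.83 ± 0.14 in controls (SD, n = 3, log2 fold −0.44, adjusted p = 0.214), and Pcsk1n, which encodes proSAAS, an inhibitor of PC1/3, at 13.18 ± 0.06 with TCDD and 12.89 ± 0.07 in controls (0.29, 0.406). In the hypothalamus they were Mbtps1, the site-1 protease (0.36, 0.324), and Pam, the enzyme that amidates peptide hormones such as α-MSH (0.27, 0.38). Scg5, which encodes 7B2, the chaperone that PC2 needs to mature, had a log2 fold of 0.04 ± 0.16 in the pituitary (adjusted p = 0.962), chosen for naming after its value was seen.

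Other granins and granule proteins gave 0 of 22 passing in either tissue with TCDD, with medians of 0.04 in the pituitary and −0.02 in the hypothalamus. Cadps, a priming factor for granule release, was 10.73 ± 0.52 in TCDD pituitaries and 10.03 ± 0.16 in controls (0.69, adjusted p = 0.203). Sytl5, a synaptotagmin-like protein that binds Rab27, was 5.44 ± 0.20 with TCDD and 5.84 ± 0.20 in controls (−0.40, adjusted p = 0.299). In the hypothalamus Gnas, which yields the granin-like NESP55 besides Gsα, stood at 0.41 (adjusted p = 0.37) and Dbh, a granule enzyme of noradrenergic cells, at 0.23 (0.485). Dbh was above background on 1 TCDD and 0 control hypothalamic arrays, so its value is set against background and is not a measured size.

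Regulators of the lineage gave 0 of 10 passing with TCDD in each tissue, and the CRH and melanocortin list 0 of 7. The regulators had medians of −0.01 in the pituitary and 0.20 in the hypothalamus, and the CRH list −0.14 and 0.03. The smallest p among regulators in the pituitary belonged to Stat3, the transcription factor through which leukaemia inhibitory factor acts on Pomc (0.21, adjusted p = 0.59), and to Nr4a1, an orphan nuclear receptor that carries the CRH signal to the Pomc promoter (−0.13, 0.729). In the hypothalamus they were Smarca4, a chromatin remodelling ATPase (0.55, 0.308), and Hes1, a target of Notch (0.53, 0.322). Crhbp, the binding protein of corticotropin-releasing hormone, was 7.57 ± 0.14 in TCDD pituitaries and 8.15 ± 0.42 in controls (−0.58, adjusted p = 0.198). Agrp, the melanocortin antagonist of arcuate neurons, was 7.32 ± 0.15 in TCDD hypothalami and 7.75 ± 0.23 in controls (−0.42, 0.288), and Mrap2, an accessory protein of melanocortin receptors, 6.49 ± 0.86 and 5.50 ± 0.23 (TCDD and control, 0.99, 0.322). Agrp stood at −0.14 in the pituitary (0.731). Pax7, the melanotroph selector, and Nr3c1, the glucocorticoid receptor, were not above background on any of the 12 arrays, so these probes give no measure of melanotrophs or of that receptor.

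The same lists were set between the tissues, where the median of all tested probes was −0.05. Of all tested probes 33.7% passed as higher and 35.9% as lower in the pituitary. A count of list genes passing is therefore not by itself a trait of the list. Of 10 regulators, 5 were higher and 3 lower in control pituitary (median 0.51). Pitx1, a homeodomain factor of the whole pituitary that binds beside Tpit on Pomc, was at least 141-fold higher, Neurod4 at least 2.4-fold and Hes1 by 1.91 (adjusted p = 3.22e-12, 2.76e-07 and 6.89e-07). Nr4a2 (−1.27, 4.32e-04), Smarca4 (−0.67, 0.00347) and Drd2, the dopamine receptor (−0.31, 0.0141), were lower. Of the CRH and melanocortin list 1 of 7 was higher, Crhbp (0.56, 0.0114), and 4 were lower (median −1.97), among them Crh, at least 4.74-fold and not above background in either pituitary group, Avp (−5.39, 3.24e-08) and Mc4r (−2.04, 9.47e-08). Of 14 processing enzymes (median 0.58) 8 were higher, led by Cpz (2.82, 2.51e-08) and Cpd (2.53, 2.45e-07), which are metallocarboxypeptidases, and Pcsk6 (2.05, 4.93e-08), and 2 were lower, Qpct, a glutaminyl cyclase (−3.41, 3.12e-08), and Prep (−0.56, 0.0472). Pitx1, Neurod4 and Cpz met the filter on dim probes only through the pituitary arrays, and Crh only through the hypothalamic ones.

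The granule list held 5 higher and 10 lower of 22, with a median of −0.28. Gnas (4.30, adjusted p = 3.9e-10), Rab27a (2.07, 4.03e-08) and Rph3al (1.53, 9.21e-07), of which Rab27a and Rph3al serve granule docking, had the largest positive differences. Stx1a, a neuronal fusion protein, was at least 5.2-fold lower, Slc18a2, the vesicular monoamine transporter, at least 3.71-fold lower, and Rab3a lower by 2.34 (adjusted p = 3.87e-08, 3.87e-08 and 1.12e-06). Slc18a2, and Pmch named below, met the filter on dim probes only through the hypothalamic arrays. Among 18 other hypothalamic prohormones 1 was higher, Penk, the enkephalin precursor (2.49, 2.35e-07), and 13 were lower (list median −2.35), led by Pmch (−7.15, 2.12e-11), Sst (−5.54, 5.03e-09) and Cck (−5.12, 2.9e-09). With TCDD 0 of those 18 passed in either tissue. In the pituitary the smallest p belonged to Trh (−1.06, 0.0717, and 0.0125 to 0.359 over the alternatives, past the threshold in 3 of 21) and Cartpt (0.59, 0.295), and in the hypothalamus to Pmch (−0.28, 0.596) and Vip (−0.38, 0.668).

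**Figure D4:**
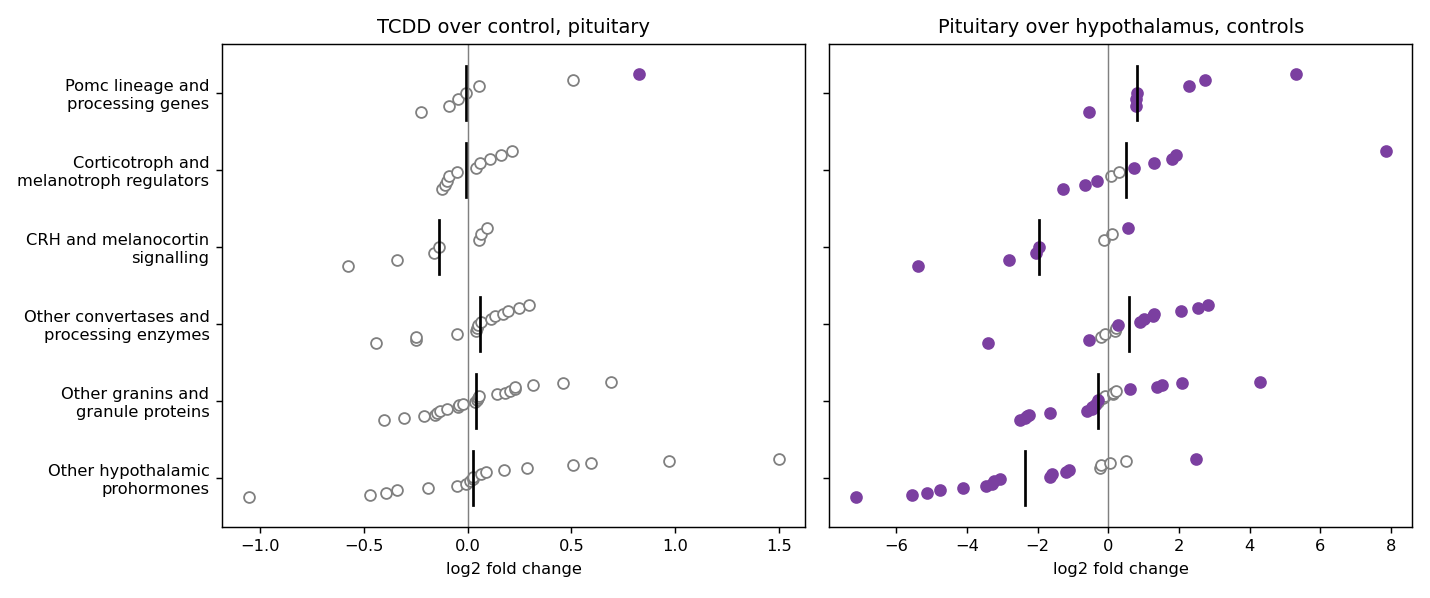
Log2 fold change of each tested gene, for the set and 5 of the lists, with the hormone, AhR and cell marker lists left out, for TCDD over control in the pituitary (left) and for pituitary over hypothalamus in controls (right). Filled points passed at adjusted p below 0.05, open points did not, and the black lines are list medians. Of the genes drawn on the left the only filled point is Pcsk2, and on the right all 7 genes of the first row are filled.

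Probes whose level followed a member most closely were listed by Pearson correlation of normalized log2 levels, as a description. With Pomc over the 12 arrays the 5 highest were Pitx1, Tmem184a, Tnfrsf12a, Tmem176b and Dlk1, with r of 0.998 to 0.999, and with Tbx19 they were Araf, Lpar3, Syf2, Elmo3 and Pkp3, with r of 0.995 to 0.997. Both lists rest on the gap between the 2 tissues, which the 12 arrays share. With Pcsk2 over the 6 pituitary arrays they were Acot2, Slc25a10, Gpr137b, Tekt2 and Pacs1, with r of 0.987 to 0.992, and these arrays share the treatment contrast.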

How the data were processed

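Per the file headers, the authors deposited 1 non-normalized bead intensity per probe and array, with a detection p-value beside it. A second deposited table holds processed values on a scale like log2, on which the arrays of a tissue share 1 distribution. Its exact transform is not stated. RNA was amplified and biotin-labelled for Illumina RatRef-12 arrays, per the labels' protocols.

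Intensities of the 12 arrays were background-corrected from the detection p-values and quantile-normalized with neqc (limma 3.58.1, R 4.3.3, offset 16, log2). The test was limited to probes detected (p below 0.05) on 3 or more arrays, and 9505 probes were left out. A limma model with 4 group means (8 residual and 4.19 prior degrees of freedom) gave two-sided moderated tests, adjusted by the Benjamini-Hochberg method over 13018 probes. The code was tested on simulated data. Raw medians were 92.5 to 120.8 and 47.4% to 54.5% of probes were detected per array. Precision is limited by how few arrays there are. The offset pulls folds of dim probes towards 0. A bound ("at least") sets the brighter group against the lowest detected signal per array, where the dimmer group was never detected.

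Symbols came from the platform annotation, which gave 13793 probes 1 symbol, 0 probes several, and left 8730 unnamed. A listed gene was read from its probe of highest mean signal. Members, lists and alternatives were chosen with earlier results of these data known. The rule named all members, up to 4 passing genes per list with TCDD or the 2 of smallest p, and up to 3 per direction between tissues. Same-numbered arrays of the compared groups had deviations correlated at −0.07 and 0.11 in the hypothalamus and at 0.04 and 0.02 in the pituitary. Between the control tissues they were 0.024 and 0.023. The numbers were not taken as pairs, although so few same-numbered arrays cannot exclude a shared litter or batch. A block for chip or section was not run, as the headers give none.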

Additional observations from a re-analysis of the deposited data

Results flagged for a closer look

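No Pomc lineage or processing gene passed the limma test of a difference in TCDD effect between the tissues. Among the other genes named, the difference of the effect, pituitary minus hypothalamus, passed for Cyp1a1 (6.28, adjusted p = 9.42e-10), Ahrr (4.02, 1.8e-09), Nqo1 (1.34, 0.00385), Fshb (−3.36, 0.0127), Lhb (−1.86, 0.027) and the troponin Tnnt3 (−0.91, 0.0275). Cyp1a1 and Ahrr were not well above background in control pituitaries or in either hypothalamic group, so their 2 values are fitted against background and are not sizes of a measured difference. Fshb was not above background on any hypothalamic array and was above it on 2 of 3 TCDD pituitary arrays, so its value too is partly set against background. For 3 further genes every TCDD array lay beyond every control array, in opposite directions in the 2 tissues, although the difference itself did not pass. They were the neuron marker Snap25 (0.56, adjusted p = 0.224) and the muscle markers Tnnc2 (−1.23, 0.118) and Ckm (−1.55, 0.159). Ckm was not well above background on any hypothalamic array, so its order there carries no direction.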

How the results depend on the processing

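Of 28 member results (7 genes in 4 comparisons), 14 kept direction and side of the threshold in all alternatives and 12 changed sign in at least 1, none of which had passed. The count of genes past the threshold with TCDD in the pituitary was 1, and 0 with the pituitary fitted alone, 0 with a replicate block, and 0 to 1 on leaving out 1 array. It was 0 in the hypothalamus and 0 for the difference of effects in every alternative run. Between tissues it was 7, and 6 with the authors' values, where Pcsk2 no longer passed. The sign changes with median scaling were Pomc in the pituitary (−0.027), Tbx19 in the hypothalamus (0.003), Chga in the pituitary (0.04) and Chgb in the hypothalamus (−0.089). With array weights they were Tbx19 in the pituitary (0.018), hypothalamus (0.011) and their difference (0.006), Chga (0.04) and Chgb (0.025) in the pituitary, and Prl in the hypothalamus (0.016). A replicate block turned Tbx19 in the difference (0.052) and Prl in the hypothalamus (0.15), separate tissue fits Scg2 in the hypothalamus (3.9e-04), and the authors' values Drd2 between tissues (0.041). The cause was not tested. On leaving out 1 array, estimates that crossed 0 ran, in the pituitary, from −0.086 to 0.091 for Chga, −0.152 to 0.093 for Chgb and −0.237 to 0.123 for Tbx19. In the hypothalamus they ran from −0.123 to 0.098 for Pomc, −0.131 to 0.066 for Scg2, −0.069 to 0.04 for Tbx19, −0.049 to 0.118 for Chgb and −0.303 to 0.084 for Prl. The differences ran from −0.044 to 0.175 for Pomc, −0.226 to 0.134 for Tbx19, −0.204 to 0.044 for Chgb and −0.092 to 0.329 for Neurod1. All tested probes passing with TCDD in the pituitary numbered 87, and 218 with the authors' values, 231 with array weights, 21 fitted alone, 40 with a replicate block and 40 to 90 on leaving out 1 array. In the hypothalamus they were 3 and 0 to 16 over the alternatives, and for the difference 26 and 5 to 38 (5 with the replicate block). Of 21 alternatives, the pituitary TCDD call was lost in 17 for Tnnt3, 12 for Ckm, 7 for Tnnc2, 4 for Cyp1b1, 1 for Myl11 and 1 for Fshb, and of 20 between tissues in 13 for Prep, 1 for Crhbp and 1 for Smarca4, and in 1 for Drd2 besides its sign change. Calls were gained with TCDD in 3 of 21 for Trh and in 1 each for Crhbp, Pcsk6 and Celf4 in the pituitary and for Cyp1b1, Smarca4 and Tshb in the hypothalamus.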
